A study of Homo sapiens with 14 samples.

Results

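ELAPOR2, RTN1, FOXE1, SCN3A and LIMCH1 are 5 genes followed here through the long culture of WI-38 cells immortalized with hTERT. Each is read by 1 row of the deposited array table, out of 19310 rows that carry a single gene symbol and 28869 rows in all. They were chosen by their measured values, as genes with a low level in early arrays and a high one in later arrays of the culture lettered A. Their rise from early to later A arrays is therefore a description and is given without a test. Of the 5, FOXE1, RTN1 and SCN3A had every later A array above every early one, as had 4.21% of all rows. ELAPOR2 had returned to an early level in 1 of the later arrays, and LIMCH1 was high, low and high again, so its values go against the name of a gene switched on once.

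WI-38 is a diploid fibroblast strain from human lung, and hTERT is the catalytic subunit of telomerase. The 14 arrays fall into 7 labelled groups of 2: cells labelled as primary, without hTERT, at passage 19 (primary), hTERT-immortalized cells lettered A at passages 39, 50, 58, 67 and 95 (A39 to A95), and hTERT-immortalized cells lettered B at passage 96 (B96). RNA was taken in biological duplicate from weekly passaged cultures, per the labels' protocols. The sources used here do not give what the letters mean, or whether the cultures were clones or pools. Below, early means the 4 arrays labelled primary and A39, and later A the 4 labelled A67 and A95. Values are deposited log2 intensities, so a difference of 1 is a doubling on the array's scale.

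The genes belong to different cell functions. FOXE1 is a forkhead transcription factor best known from thyroid development. SCN3A encodes the pore-forming subunit of a voltage-gated sodium channel, a channel type that opens on depolarization and is best known from neurons. RTN1 is a reticulon, one of the membrane proteins that bend the tubules of the endoplasmic reticulum, and is used as a marker of neuroendocrine cells. ELAPOR2 is a transmembrane protein related to ELAPOR1, an endosome and lysosome protein linked to autophagy, and LIMCH1 is an actin-associated protein that promotes non-muscle myosin II activity and stress fibres. None of the 5 is counted among the classical markers of fibroblasts.

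Some arrays go against their labels, and this touches every value below. TERT read 7.07 in primary replicate 1 and 11.70 in primary replicate 2, inside the range of 10.67 to 12.18 of the 12 arrays labelled hTERT. Over all rows but the 5 members, 5 pairs of arrays were each other's closest match, and in each pair a replicate 2 stood beside a replicate 1 of a different label. The replicate 2 came from primary, A39, A50, A58 and A95, and its match was replicate 1 of A39, of A50, of A58, of A67 and of B96, in that order. The groups of the labels were kept for every comparison, and the array-by-array values are given beside them. The later A arrays thus hold A67 replicate 1, matched with A58 replicate 2, and A95 replicate 2, matched with B96 replicate 1. Their SD is therefore not a spread between like replicates. Replicates of a label have no order, so "first" below refers to the passage of the label and then names the array.

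The study's title concerns methylation, which in human DNA falls mostly on CpG dinucleotides, so the bases upstream of the members' start sites are shown with each CpG in capitals. RefSeq's promoter table (GRCh38.p14) held 4 of the 5 members, all but SCN3A, with several start sites for 3 of them. For each of the 4 the window with the most CpGs is printed, and for RTN1 also the one with the fewest. Each is 250 bases upstream of a start site, 5′ to 3′ on the gene's strand.
ELAPOR2, chr7:87059655-87059904, minus strand: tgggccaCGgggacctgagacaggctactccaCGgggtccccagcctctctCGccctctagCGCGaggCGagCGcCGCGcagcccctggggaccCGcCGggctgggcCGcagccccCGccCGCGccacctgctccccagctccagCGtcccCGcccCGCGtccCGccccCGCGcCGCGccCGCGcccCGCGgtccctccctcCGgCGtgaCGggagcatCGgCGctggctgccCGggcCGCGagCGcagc
RTN1, CpG-rich start, chr14:59630624-59630873, minus strand: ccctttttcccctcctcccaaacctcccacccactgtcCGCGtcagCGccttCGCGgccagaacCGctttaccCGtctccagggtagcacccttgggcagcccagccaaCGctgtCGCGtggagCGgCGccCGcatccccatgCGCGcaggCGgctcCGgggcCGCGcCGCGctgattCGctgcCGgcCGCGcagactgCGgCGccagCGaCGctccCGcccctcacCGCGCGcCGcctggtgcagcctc
RTN1, CpG-poor start, chr14:59610140-59610389, minus strand: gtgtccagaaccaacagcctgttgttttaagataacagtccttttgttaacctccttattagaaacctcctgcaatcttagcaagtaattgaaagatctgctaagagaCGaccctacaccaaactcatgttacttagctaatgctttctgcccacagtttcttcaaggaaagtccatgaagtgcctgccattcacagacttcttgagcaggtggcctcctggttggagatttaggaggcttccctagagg
FOXE1, chr9:97852976-97853225, plus strand: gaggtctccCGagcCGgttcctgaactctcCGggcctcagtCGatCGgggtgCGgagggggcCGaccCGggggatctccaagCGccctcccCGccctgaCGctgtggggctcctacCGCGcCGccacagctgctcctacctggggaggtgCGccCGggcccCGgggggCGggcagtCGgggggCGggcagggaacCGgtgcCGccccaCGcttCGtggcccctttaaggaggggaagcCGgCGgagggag
LIMCH1, chr4:41360557-41360806, plus strand: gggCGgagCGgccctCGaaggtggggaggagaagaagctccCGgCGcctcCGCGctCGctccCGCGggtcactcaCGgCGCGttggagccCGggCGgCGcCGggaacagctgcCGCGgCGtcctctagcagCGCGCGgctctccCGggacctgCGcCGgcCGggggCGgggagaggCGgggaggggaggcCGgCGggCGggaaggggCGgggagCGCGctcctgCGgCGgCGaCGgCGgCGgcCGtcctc

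The ELAPOR2 window holds 37 CpGs, the CpG-rich RTN1 window 34, the FOXE1 window 26 and the LIMCH1 window 42, against a median of 11 over the 35116 windows of the table. They have more CpGs than 96.0%, 93.2%, 80.4% and 98.6% of those windows. The CpG-poor RTN1 window holds 1, more than 6.1% of windows. RTN1's remaining window holds 19, ELAPOR2's other window 2, and LIMCH1's other 3 windows hold 2, 3 and 3. The array row reads a whole gene, so the values below do not tell which start was used, and methylation at these sites is not analysed here.

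In all 5 short motifs were searched on both strands in the same windows. The GC box GGGCGG occurred 3 times in the ELAPOR2 window, 4 times in that of FOXE1, 5 times in that of LIMCH1 and 1 time in the CpG-rich RTN1 window, and 42.6% of all windows hold it. The TATA box TATAAA (10.7% of windows), the E-box CACGTG (6.34%), the forkhead motif TGTTTAC (2.98%) and the CRE motif TGACGTCA (1.65%) did not occur in the 5 windows shown. A match or its absence describes these letters in these windows only. No motif contains another.

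FOXE1, the thyroid factor, had levels of 7.98 and 9.04 in the primary cultures (replicate 1 first here and below), of 8.97 and 6.39 in those of A39, and of 6.56 and 11.44 for A50. A58 followed with 11.43 and 11.50, A67 with 11.41 and 11.69, and A95 with 11.60 and 10.14, while B96 gave 10.03 and 6.45. The gene thus stood at an intermediate level in the earliest arrays, at its lowest in A39 replicate 2, A50 replicate 1 and B96 replicate 2, and on a plateau of 11.41 to 11.69 in the 6 arrays from A50 replicate 2 to A95 replicate 1. Later A arrays averaged 11.21 ± 0.72 (SD, n = 4) and early arrays 8.10 ± 1.24 (SD, n = 4), without overlap. In bulk RNA a higher level in every cell and a larger share of cells with the gene on cannot be told apart.

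RTN1 was the gene with the flattest low state. It read 5.66 and 5.37 in the primary arrays, 5.52 and 5.55 in A39 and 5.63 in A50 replicate 1. The level was then 9.33 in A50 replicate 2, 9.22 and 10.16 in A58, 10.06 and 10.52 in A67 and 10.48 in A95 replicate 1. A95 replicate 2 and B96 replicate 1 lay between the low and the high arrays, at 7.98 and 8.13, and B96 replicate 2 was the lowest of all at 5.15. The values of the low state lay below the array medians of 7.26 to 7.48. With no detection calls, a flat low level and the floor of the array cannot be told apart. Early arrays averaged 5.53 ± 0.12 (SD, n = 4) and later A arrays 9.76 ± 1.20 (SD, n = 4), again without overlap.

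SCN3A went up in more than 1 step. Primary replicate 1 had the lowest value, 5.51, and primary replicate 2 and A39 replicate 1 read 7.88 and 7.75. A39 replicate 2 and A50 replicate 1 both read 9.11. From A50 replicate 2 onward the A arrays lay between 10.76 and 11.78, with 11.72 in A50 replicate 2, 11.78 and 11.41 in A58, 11.31 and 10.76 in A67, and 10.76 and 11.55 in A95. B96 was split widely, at 11.57 and 7.07. The sodium channel gene was therefore already raised in the arrays labelled A39 and A50 in which FOXE1 was at its lowest, and in A95 replicate 2 and B96 replicate 1 it was at 11.55 and 11.57 while ELAPOR2, RTN1 and FOXE1 were below their plateaus.

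ELAPOR2 rose by way of an intermediate level, first in A50 replicate 2, where these genes also went up, and by more in A58 replicate 2. It read 6.66 and 5.31 in the primary arrays, 5.68 and 5.85 in A39 and 5.83 in A50 replicate 1. The value was 7.72 in A50 replicate 2 and 7.56 in A58 replicate 1, and then 11.22 in A58 replicate 2, 11.14 and 10.55 in A67 and 10.44 in A95 replicate 1. In A95 replicate 2 it was back at 6.47, below the 6.66 of primary replicate 1, and the B96 arrays read 6.72 and 6.01. Later A arrays averaged 9.65 ± 2.14 (SD, n = 4) and early arrays 5.88 ± 0.57 (SD, n = 4), and that 1 array made the groups overlap.

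LIMCH1 differed from the other 4 genes between the arrays of A50, where it was lower in replicate 2 and they were higher. Its 2 primary arrays read 5.48 and 8.01, A39 read 7.88 and 9.17, and A50 replicate 1 read 9.01. The level then was 5.36 in A50 replicate 2, 5.69 and 6.43 in A58 and 6.01 in A67 replicate 1, before 9.92 in A67 replicate 2, 9.80 and 9.72 in A95 and 9.92 in B96 replicate 1. B96 replicate 2 read 6.84. The actin-associated gene was thus low in primary replicate 1, high in the arrays from primary replicate 2 to A50 replicate 1, low in the next 4 and high in the 3 A arrays after them. Early arrays (7.64 ± 1.55, SD, n = 4) and later A arrays (8.86 ± 1.90, SD, n = 4) overlapped over most of their range.

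**Figure D1:**
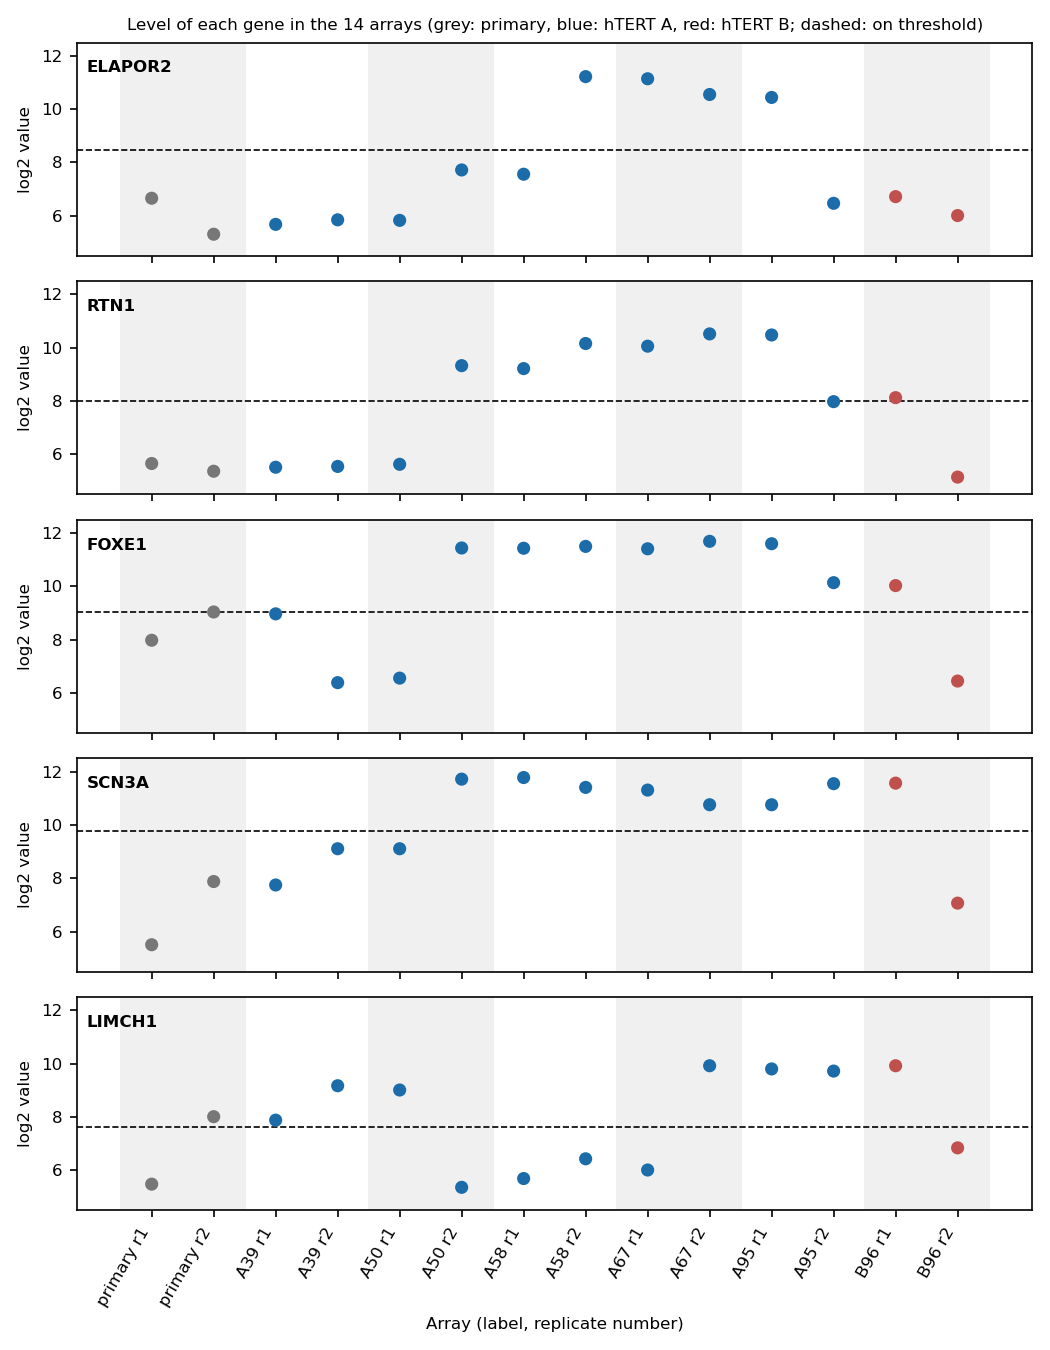
Deposited log2 value of each gene (y axis) in the 14 arrays in the order of their labels (x axis, r1 and r2 for replicates 1 and 2), with 1 point per array, grey for primary, blue for hTERT A and red for hTERT B. The dashed line is the value halfway between the lowest and highest A array, 8.45 for ELAPOR2, 8.02 for RTN1, 9.04 for FOXE1, 9.77 for SCN3A and 7.64 for LIMCH1, and the 4 genes other than LIMCH1 first cross it inside A50 or A58.

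To name the array at which each gene turned on, a gene was called on where it lay above the point halfway between its lowest and highest A array. RTN1, FOXE1 and SCN3A were first on in A50 replicate 2, and in every A array from there to A95 replicate 1. ELAPOR2 was first on in A58 replicate 2, and on in 4 arrays in all. LIMCH1 was on in A39 replicate 1 already, off from A50 replicate 2 to A67 replicate 1 and on again in A67 replicate 2, for 8 arrays in all. RTN1 was on in 7 arrays and FOXE1 and SCN3A in 8 each, B96 replicate 1 among them.

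Some arrays lay close to these thresholds. RTN1 in A95 replicate 2 (7.98) fell just below its threshold of 8.02, and in B96 replicate 1 (8.13) just above. FOXE1 in primary replicate 2 lay on its threshold of 9.04. With at least 1 log2 above the mean of the early arrays as the rule, ELAPOR2 was first on in A50 replicate 2 and SCN3A in A39 replicate 2, which also holds for SCN3A with the halfway point taken over all 14 arrays. With the largest gap between A arrays as the boundary, FOXE1 counted as on in 11 arrays, primary and A39 arrays among them. For RTN1 the first array was A50 replicate 2 under each of the 5 other settings.

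By the labels as given, the switch-on fell inside A50 and A58. The 2 arrays of A50 each had their closest match under another label, so a step inside a label and a step between labels, with the deposited columns shifted by 1 array against their titles, cannot be told apart. From replicate 1 to replicate 2 of A50, FOXE1 differed by 4.88, RTN1 by 3.70, SCN3A by 2.61 and ELAPOR2 by 1.89, all upward, and LIMCH1 by -3.65. All 5 members thus differed by at least 1 log2 between these arrays of 1 label, as did 2.65% of all rows, and 4 of them upward, as did 1.48%. The rule drew on these arrays, so nothing is read from the counts. In A58 only ELAPOR2 of the 5 differed by at least 1 log2, by 3.66 (3.26% of rows), and in A67 only LIMCH1, by 3.91 (1.57% of rows). Within the other labels the count was 4 of 5 for primary (2.94% of rows), 3 of 5 for A39 (2.74%), 3 of 5 for A95 (9.51%) and 4 of 5 for B96 (9.57%).

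Arrays that were closest matches across labels had nearly the same levels of the members. Over the 5 such pairs the 25 differences of the members had a median size of 0.11 log2 and the largest was 0.42, for LIMCH1 between A58 replicate 2 and A67 replicate 1. Over the 7 pairs that share a label, the 35 differences had a median size of 1.36, and 21 were at least 1 log2. SCN3A differed by 0.13 or less in every matched pair and by 0.37 to 4.5 within labels. A matched pair differed by at least 1 log2 in 156 to 361 of all rows and a labelled pair in 454 to 2764. The rule drew on these arrays too, so the members' differences are a description.

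**Figure D2:**
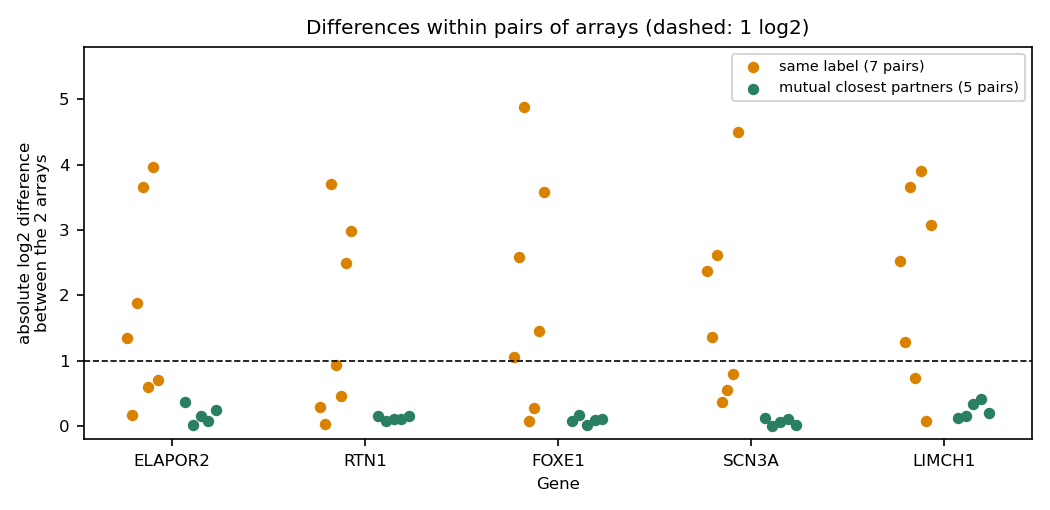
Absolute log2 difference (y axis) of each gene (x axis) between the 2 arrays of a pair, for the 7 pairs that share a label (orange) and the 5 pairs of mutual closest arrays (green), 1 point per pair. The green points all lie at or below 0.42, while 21 of the 35 orange points reach the dashed line at 1 log2.

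In the fit of group means, the later A arrays exceeded the early ones by 4.24 ± 0.85 (SE) for RTN1, 3.78 ± 0.93 for ELAPOR2, 3.53 ± 0.93 for SCN3A, 3.12 ± 1.06 for FOXE1 and 1.23 ± 1.06 for LIMCH1. All 5 members therefore had a difference of at least 1 log2 upward, as had 0.838% of all rows, and 0 of 5 a difference of that size downward, as had 1.42%. Of the members 3 of 5 had no overlap in that direction, as had 4.21%. Because the members were chosen on this contrast, no test of them is given and nothing is read from the counts. The median over the members was 3.53, against 0.05 over all 28869 rows. LIMCH1's value rested on single arrays: it was 0.25 without A67 replicate 2, 0.60 without primary replicate 1, 1.86 without primary replicate 2 and 2.21 without A67 replicate 1. Without primary replicate 2, the array that goes against its label by TERT, the other members had 3.38 (FOXE1) to 4.16 (RTN1).

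By the means of the labels, A67 stood highest for ELAPOR2 (10.85 ± 0.42, SD, n = 2), RTN1 (10.29 ± 0.33) and FOXE1 (11.55 ± 0.20), and A58 for SCN3A (11.60 ± 0.26) and A95 for LIMCH1 (9.76 ± 0.06). The lowest label was A39 for ELAPOR2 (5.77 ± 0.12) and FOXE1 (7.68 ± 1.82), primary for RTN1 (5.52 ± 0.21) and SCN3A (6.70 ± 1.68), and A58 for LIMCH1 (6.06 ± 0.52). Next to each other in these orders, labels overlapped in their arrays for every member, with the exception of A95 above A39 for LIMCH1. The spread within a label was thus wider than most steps between neighbouring labels.

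The arrays lettered B were not named by the rule, but the A95 and primary values they are set against had helped to choose the members. Their differences are therefore a description, given without a p. RTN1 averaged 6.64 ± 2.11 (SD, n = 2) in B96 and differed from A95 by -2.59 ± 1.21 (SE). The difference was -2.63 ± 1.5 for FOXE1, -2.09 ± 1.31 for ELAPOR2, -1.84 ± 1.31 for SCN3A and -1.38 ± 1.5 for LIMCH1. Single arrays decided these sizes: without A95 replicate 1 ELAPOR2 had -0.11 and RTN1 -1.34, and without A95 replicate 2 they had -4.08 and -3.84. Without B96 replicate 1 the difference was -4.42 for FOXE1, -4.08 for RTN1, -4.09 for SCN3A and -2.92 for LIMCH1, and without B96 replicate 2 it was -0.84 for FOXE1 and -1.10 for RTN1. Against primary the differences were 2.63 ± 1.31 for SCN3A, 1.64 ± 1.5 for LIMCH1, 1.13 ± 1.21 for RTN1, 0.38 ± 1.31 for ELAPOR2 and -0.27 ± 1.5 for FOXE1. With single arrays left out they ran from 0.38 to 4.88 for SCN3A and from 0.10 to 3.18 for LIMCH1, lowest without B96 replicate 1 and highest without B96 replicate 2.

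Limma called 0 of 28869 rows (0%) in both B96 contrasts, with 659 rows at an unadjusted p under 0.05 against A95 and 1981 against primary. These calls rest on the spread within labels, and no label joined 2 arrays that were each other's closest match. The members were not among called rows, which says nothing about them here. The 2 arrays lettered B disagreed on the members. B96 replicate 1 had SCN3A, FOXE1, RTN1 and LIMCH1 above their thresholds and B96 replicate 2 had none of the 5. Without B96 replicate 2 the difference from A95 turned to 0.42 for SCN3A and 0.16 for LIMCH1, and limma called 3 rows. The difference from primary then turned to 1.52 for FOXE1, with 6 rows called, and without B96 replicate 1 it turned to -0.37 for RTN1. Without primary replicate 2 it was -0.30 for ELAPOR2 and 0.26 for FOXE1.

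**Figure D3:**
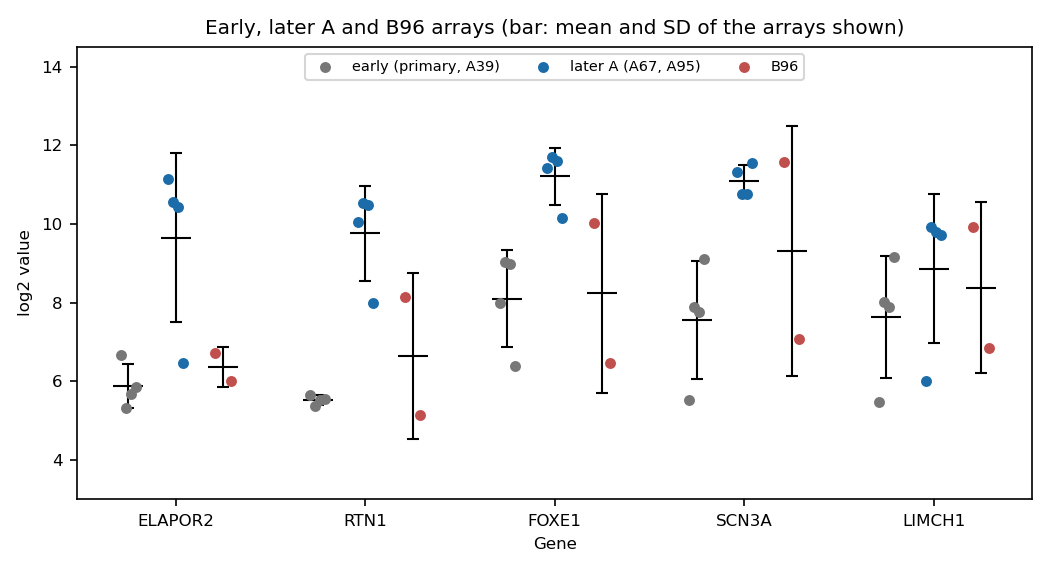
Log2 value (y axis) of each gene (x axis) in the early arrays (grey, primary and A39, n = 4), the later A arrays (blue, A67 and A95, n = 4) and B96 (red, n = 2), with 1 point per array and a bar for mean and SD. Grey and blue points do not overlap for RTN1, FOXE1 and SCN3A, and the red points of SCN3A lie at 11.57 and 7.07.

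Among themselves the members fell into 4 genes that varied together and 1 that did not. Over the 14 arrays Pearson's r was 0.92 between RTN1 and FOXE1, 0.89 between RTN1 and ELAPOR2, 0.82 between RTN1 and SCN3A and 0.75 between ELAPOR2 and FOXE1. It was 0.74 for FOXE1 with SCN3A and 0.55 for ELAPOR2 with SCN3A. LIMCH1 had r between -0.11 and 0.16 with the other 4, and between -0.40 and -0.18 over the 10 A arrays. These values describe arrays that include closely matched pairs, and the members were chosen for a shared pattern.

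Genes with the most similar pattern were searched among 1683 genes whose rows varied by an SD of at least 0.5. For FOXE1 the closest was AGTR1, the type 1 angiotensin II receptor, with r = 0.98 over 14 arrays and 0.99 over the 10 A arrays. AGTR1 read 7.82 to 8.47 in primary replicates and A39 replicate 1, 6.15 and 6.44 in A39 replicate 2 and A50 replicate 1, 9.59 to 10.30 from A50 replicate 2 to A95 replicate 1, and 7.19 in B96 replicate 2. The receptor gene thus shared both the dip and the plateau of FOXE1. RPP40, a subunit of RNase P, followed with r = 0.97, then PPP4R4, a regulatory subunit of protein phosphatase 4, and POLR3G, a subunit of RNA polymerase III, with 0.95 each, and GK5 with 0.94.

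For RTN1 the search gave TOM1L1 (r = 0.97), RAP1GAP2, a GTPase-activating protein for Rap1 (0.96), PPP1R13B (0.95), LRRC2 (0.95) and the reelin and lipoprotein receptor LRP8 (0.95). ELAPOR2 had RAP1GAP2 (0.92), the transcription factor KLF4 (0.90), DACH2 (0.90), RTN1 itself (0.89) and the integrin activator FERMT1 (0.88). RAP1GAP2, close to both, had 2 stages like ELAPOR2, from 7.55 to 8.43 in the first 5 arrays to 9.69 and 9.58 in A50 replicate 2 and A58 replicate 1 and 10.33 to 10.57 in the next 4. SCN3A had KCTD16, an auxiliary subunit of GABA-B receptors (0.95), COBLL1 (0.93), the sphingomyelin synthase SGMS2 (0.93), PAQR5 (0.93) and STARD4, a cholesterol transfer protein (0.92).

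LIMCH1 had its own set. DNAJC6, which encodes auxilin, a cofactor that uncoats clathrin vesicles, followed it with r = 0.97 and read 5.40 in primary replicate 1, 7.51 to 8.34 in the next 4 arrays, 5.83 to 6.15 from A50 replicate 2 to A67 replicate 1, and 8.06 to 8.84 in the 4 after that. The glutamate transporter SLC1A1 (0.92) was also low in the arrays in which LIMCH1 was low. The others were GPR65 (0.83), the potassium channel gene KCNMA1 (0.78) and VNN1 (0.78). With Spearman's rho in place of Pearson's r, between 1 and 3 of the 5 genes per member stayed in the list. Which genes are named therefore depends on the measure.

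The neighbours of each member on its chromosome were read from RefSeq's gene order, 2 protein-coding genes on each side. Shares given beside their correlations are of the rows with a single symbol, the neighbour's own row included. All 4 neighbours of SCN3A on chromosome 2 had positive correlations with it over the 14 arrays. COBLL1 had r = 0.93 with SCN3A (a value reached by 0.0466% of rows), SCN2A, the adjacent sodium channel gene, 0.85 (0.264% of rows), SLC38A11 0.70 (1.62%) and CSRNP3 0.69 (1.86%). SCN2A read 5.30 to 5.91 in the first 5 arrays, 7.82 and 7.80 in A50 replicate 2 and A58 replicate 1, 6.69 to 7.59 in the next 6 and 6.12 in B96 replicate 2. SCN2A and SCN3A are paralogs, and whether the probes of one row respond to RNA of the other was not tested.

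**Figure D4:**
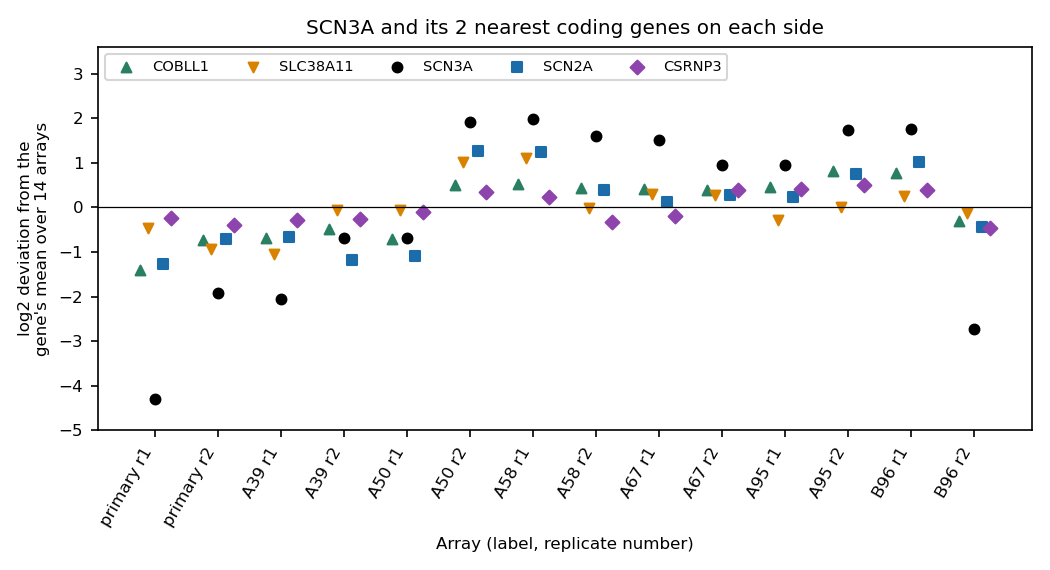
Log2 deviation of SCN3A and of its 2 nearest protein-coding genes on each side from each gene's own mean (y axis) in the 14 arrays (x axis, in label order), with 1 symbol per gene, shifted sideways to keep them apart. SCN3A, SCN2A and COBLL1 are below their means in the first 5 arrays and in B96 replicate 2 and above them from A50 replicate 2 to B96 replicate 1.

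The neighbours of the other members had correlations from near 0 to strong, of either sign. UCHL1, a deubiquitinase next to LIMCH1 on chromosome 4, ran opposite to it with r = -0.93 (0.00518% of rows with a single symbol as low). UCHL1 read 12.82 and 12.79 where LIMCH1 read 5.36 and 5.69, and 11.80 to 11.87 in the 4 arrays from A67 replicate 2 to B96 replicate 1. LIMCH1's other measured neighbours, APBB2 and TMEM33, had r of 0.39 and 0.09. Next to FOXE1 on chromosome 9, the DNA repair gene XPA and TRMO had r = 0.77 each (1.3% and 1.24% of rows). They ranged from 8.76 to 9.73 and from 6.75 to 7.48, and NCBP1 and HEMGN had r of 0.03 each. SEMA3D, a secreted guidance factor 2 genes from ELAPOR2 on chromosome 7, went from 8.18 in A50 replicate 1 to 11.53 in A50 replicate 2 and then read 9.56 to 11.61 up to A95 replicate 1 (r = 0.56), while GRM3 and DMTF1 had -0.10 and 0.44. On chromosome 14, LRRC9 beside RTN1 read 2.64 to 3.57 in 12 arrays and 7.19 and 7.39 in A95 replicate 2 and B96 replicate 1, and had r = 0.08 with RTN1.

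Relatives of the members were counted by the same size of difference, which 0.838% of all rows reached upward and 1.42% downward, so a list with 0 such genes is near the background. Of 12 measured sodium channel genes other than SCN3A, SCN2A (1.30 ± 0.48, SE) and NALCN, the sodium leak channel (1.56 ± 0.76), had differences of at least 1 log2 between later A and early arrays, and 0 had one downward. The median over the 12 was 0.30, against 0.05 over all rows. NALCN read 10.31 and 10.26 in A50 replicate 2 and A58 replicate 1 and 6.67 and 6.56 in A95 replicate 2 and B96 replicate 1, a fall that SCN3A did not share. Of 16 other channel genes of excitable cells, KCND2, a voltage-gated potassium channel, had 1.55 ± 0.60, with 5.89 to 6.14 in the first 5 arrays and 9.15 in A50 replicate 2, and the median over the 16 was 0.26.

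Of 37 forkhead genes other than FOXE1, 0 had a difference of at least 1 log2 in either direction, and the median was 0.13. FOXM1, a regulator of mitotic genes, had 0.86 ± 0.27 (SE) and FOXF2, a factor of lung mesenchyme, -0.87 ± 0.40. The 11 measured genes listed as FOXE1 partners and thyroid targets, MSX1 and TGFB3 among them, had a median of 0.12 and 0 past 1 log2. Of the 7 reticulon genes and receptors beside RTN1, 0 reached 1 log2, and RTN2 had the largest difference at 0.53 ± 0.29, RTN3 0.11 ± 0.15 and RTN4, the most widely expressed reticulon, -0.05 ± 0.11. The 12 genes of endoplasmic reticulum shaping had a median of -0.03 and 0 past 1 log2.

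ELAPOR1, the relative of ELAPOR2, ranged from 6.26 to 7.40 without following it, and the 11 genes of its family and autophagy had a median of -0.24 with 0 past 1 log2. The 22 measured BMP signalling genes had a median of 0.04 with 0 past 1 log2, and the ligand gene BMP4 had -0.99 ± 0.44 (SE). LMO7, the paralog of LIMCH1, read 11.22 to 12.03, and the 19 actomyosin genes had a median of -0.18 with 0 past 1 log2. Limma called 0 genes in each direction in each of these lists, in later A versus early (0% of rows called, 3447 at an unadjusted p under 0.05) and in both B96 contrasts.

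Checked against the fibroblast label, its 12 markers had a mean of 11.22 to 12.12 over the arrays, with 11.70 to 12.10 in early and 11.22 to 11.59 in later A arrays, which do not overlap, and a median difference of -0.47 over the markers. Here and below, how often the means of other gene sets fail to overlap was not measured. VIM, COL1A1 and FN1 were each at 12.39 or higher in every array. THY1, LUM and COL3A1, surface and matrix genes of fibroblasts, had differences of -1.16 ± 0.23 (SE), -1.17 ± 0.38 and -1.18 ± 0.38 between later A and early arrays. They were the 3 markers of the 12 lower by at least 1 log2 (1.42% of all rows), and 0 were higher by that size (0.838%). PDGFRA (0.37 ± 0.17) and S100A4 (0.56 ± 0.96) went the other way. Markers of cells in which the members are better known were averaged in the same way. The mean of 12 neuron markers was 6.88 to 6.96 in early and 6.999 to 7.14 in later A arrays, a small difference without overlap. The mean of 9 neuroendocrine markers was 7.67 to 7.78 and 7.48 to 7.91, and that of 8 thyroid markers 7.09 to 7.44 and 7.003 to 7.54. In these 3 lists 0 genes reached 1 log2, and no marker of these lists was listed at 0. Only 3 to 20 rows per array were, so this does not show that the markers were detected. The largest among the neuron markers were SNAP25 at 0.80 ± 0.24 and SYT1 at 0.69 ± 0.28.

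The mean of 9 epithelial markers was 7.87 to 8.08 in early and 7.57 to 7.80 in later A arrays, again without overlap. KRT19 (-1.545 ± 0.46, SE) was the 1 marker of the 9 lower by at least 1 log2, and 0 were higher by that size. KRT18 had -0.79 ± 0.43, and the median over the 9 was -0.0075. For 5 keratinocyte markers it was 6.76 to 6.89 and 6.74 to 7.08, and for 6 endothelial markers 6.85 to 7.17 and 6.90 to 7.11. For 4 blood markers it was 5.93 to 6.37 and 6.17 to 6.41, and for 5 muscle markers 7.01 to 7.23 and 7.19 to 7.84. In the endothelial list 1 marker was lower by at least 1 log2, TEK (-1.19 ± 0.68), and 0 were higher. In the muscle list 1 was higher, ACTC1 (1.54 ± 0.87), and 0 were lower. The keratinocyte and blood lists had 0 in either direction. Over all rows the shares were 0.838% upward and 1.42% downward. Of 10 measured genes of growth arrest and cycling, 0 were higher and 1 was lower by at least 1 log2 in later A arrays, and limma called 0. The median over the 10 was 0.43, against 0.05 over all rows. The gene lower by that size was CDKN2A, the p16 gene of cell cycle arrest. It read 8.80 to 9.59 in early and 6.33 to 7.85 in later A arrays, but 9.46 and 9.42 in A50 replicate 2 and A58 replicate 1, where FOXE1, RTN1 and SCN3A were on. Of the other inhibitor genes, CDKN1A had -0.67 ± 0.19 (SE) and CDKN2B -0.0025 ± 0.16. MKI67, a cycling gene of this list, had 0.755 ± 0.35. It read 8.79 to 10.74 in early and 10.55 to 10.91 in later A arrays, which overlap. The part of CDKN2A, of the cycling genes and of the fibroblast markers in the levels of the members was not tested.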

How the data were processed

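RNA of 14 cultures was measured on Affymetrix Human Gene 1.0 ST arrays, per the labels' protocols. The authors deposited 1 table of log2 intensities with 28869 rows. Its log base was read from the values. How background was corrected, probes summarised and arrays normalized is not stated in any source used here. The medians of the arrays were 7.26 to 7.48 and 3 to 20 rows per array were listed at 0, and with no detection calls the number of arrays limits the precision. A single symbol was found for 19310 rows from the platform annotation, of which 19279 were updated by gene ID through RefSeq's gene table (GRCh38.p14), which served for names and neighbours.

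The values were used as deposited. Group means were estimated from the 14 arrays together by limma 3.58.1 (R 4.3.3, moderated two-sided test, 7 residual and 3.43 prior degrees of freedom). Benjamini-Hochberg adjustment covered every row, and an adjusted p under 0.05 was a call. The fit was tested on simulated data, with changes placed only in rows of below-median spread. That test does not cover rows that vary as much as the members, whose median SD within labels was 1.59. The p-values set a difference against the spread between arrays of a label. Pairs that share a label differed by at least 1 log2 in 454 to 2764 rows, and matched pairs in 156 to 361. A count of 0 called rows therefore does not show that no row differs. Each comparison has an arm used to choose the members, so limma's calls are given for the background and the lists, and no p for the members. For lists, the brightest row stood for a gene. Similar genes were the 5 with the highest Pearson correlation among rows with an SD of at least 0.5. The named genes were the members, their neighbours, those similar genes, members of the lists, and genes checking the state of the arrays. Members, lists and rules were chosen with earlier results of these data known. Alternatives were leaving out each array, a replicate block, other normalizations, rows with a mean at or above the 30th percentile, other priors, array weights, fits on the compared groups alone, and other thresholds for on. A limma count for later A versus early and a crossed replicate block were added after seeing the data.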

Additional observations from a re-analysis of the deposited data

How the results depend on the processing

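The difference between later A and early arrays was upward for all 5 members under each of the 15 alternatives, with a median over the members of 2.78 to 3.82 when single arrays were left out. Because the members were chosen for a rise between these arrays, its direction was set beforehand and is no independent check. The median was 3.52 with quantile normalization and 3.50 with arrays centred on their medians. It stayed at 3.53 with the replicate block, without dim rows, with the other prior, with weighted arrays and with the remaining groups left out. These latter settings left every member's difference as in the main fit, so they do not test its size. For this contrast limma called 0 rows with all groups and 138 when fitted on the compared groups alone, where the cause of the difference was not tested. B96 versus A95 gave 0 to 3 called rows with single arrays left out, and B96 versus primary 0 to 6, and 1 with quantile normalization. The other alternatives, the replicate block among them, gave 0 in both. The members' differences with single arrays left out, which include changes of sign, ran for B96 versus A95 from -4.09 to 0.42 for SCN3A and -2.92 to 0.16 for LIMCH1, and for B96 versus primary from -0.30 to 1.06 for ELAPOR2, -0.37 to 2.62 for RTN1 and -2.06 to 1.52 for FOXE1. Equal replicate numbers do not pair these arrays: deviations correlated at -0.53 between B96 and A95, 0.05 between B96 and primary, and -0.18 to 0.13 among the groups of the first contrast. Pairing the numbers crosswise gave 0 called rows in both B96 contrasts. Of the 5 most similar genes per member, 1 to 3 were kept with Spearman's rho and 2 to 3 over the A arrays alone. The number of arrays and the lack of background signals limit what can be said of low values.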

Other observations

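Some marker genes of the lists also varied widely between arrays. S100A4, a calcium-binding protein often used as a fibroblast marker, read 8.92 and 10.40 in the primary arrays, 8.03 in A39 replicate 2, 11.37 in A58 replicate 2 and 6.89 and 6.26 in A95 replicate 2 and B96 replicate 1. ACTC1, the cardiac alpha-actin gene, went from 8.57 in A58 replicate 1 to 6.68 in A58 replicate 2, and from 6.68 in A67 replicate 1 to 9.76 in A67 replicate 2, so that it was high, low and high again within the span in which FOXE1 stayed on its plateau. TEK, an endothelial receptor kinase, was 9.18 to 10.76 in 12 arrays and 6.77 and 6.79 in A95 replicate 2 and B96 replicate 1. KRT19, an epithelial keratin, read 7.93 to 9.11 in the first 5 arrays and 8.55 in B96 replicate 2, and 6.71 to 7.08 in the 8 arrays between. These genes were picked from the lists after their values were seen, and the values are given without a test.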
